A study of Mus musculus with 24 samples.

Results

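The perineuronal net and tenascin genes described here are Acan, Bcan, Ncan and Vcan, Hapln1 and Hapln4, and Tnc and Tnr. They were taken by their symbols from the raw gene counts of each library and make up 8 of the 49568 gene symbols counted. Earlier results of these data were known when they were chosen. All 8 passed the filter on low counts and were among the 18482 genes tested. Perineuronal nets are lattices of extracellular matrix that enclose the cell body and proximal dendrites of certain neurons, mainly parvalbumin interneurons and, in the hippocampus, also CA2 pyramidal cells. Chondroitin sulfate proteoglycans of the lectican family bind hyaluronan at one end, where link proteins of the Hapln family lock the bond, and are cross-linked by tenascin-R at the other. The nets are known to restrain structural plasticity in the adult brain, and their enzymatic removal reopens forms of juvenile plasticity.

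Hippocampal poly-A RNA was sequenced as 24 libraries to ask how rearing in an enriched environment changes gene expression, and whether this needs the kinase activity of MSK1, an enzyme that couples BDNF and MAPK signaling to transcription. The mice were wild type (WT) or homozygous for a kinase-dead allele of MSK1 (MSK1 KD, here KD), in which an aspartate-to-alanine substitution inactivates the N-terminal kinase domain in every cell that makes the enzyme. Each genotype was held in standard housing (SH) or in enrichment (EE), which were large cages with a running wheel, tubes and toys that were changed, and in which the mice were born and reared. All were naive males on a C57-Bl/6J background, 12 weeks old by the labels, and the tissue was the whole hippocampus. WT and KD mice were kept as separate homozygous lines, so genotype and line cannot be told apart. The protein-changing allele is still transcribed: Rps6ka5, the gene of MSK1, was at 24.9 ± 2.21 CPM (SD, n = 6) in WT SH, 21.4 ± 1.92 (n = 5) in WT EE, 25.4 ± 2.18 (n = 6) in KD SH and 23.6 ± 3.47 (n = 5) in KD EE, so its level does not check the genotype labels. CPM is the usual depth-adjusted count, here with TMM-scaled library totals.

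A WT EE library, 33B, and a KD EE library, 34B, had not passed the study's quality control and were not used, which left 6 WT SH, 5 WT EE, 6 KD SH and 5 KD EE libraries. These 22 held between 8911999 and 56752074 counts on genes, for which 3 counts, the floor used here, stand for 0.0529 to 0.337 CPM, and every one of the genes described was above that floor in every library. The study removed 5 of the 22 (2, 9, 12, 31B and 35A) for poor agreement within their groups, and where its 17 libraries changed a call, both values are given. Hippocampal markers were present throughout: Wfs1 (CA1) was at 137 to 223 CPM, Prox1 (dentate granule cells) at 81.8 to 136 CPM and Rgs14 (CA2) at 75.1 to 124 CPM. Markers of neighboring tissue varied. The summed level of 10 choroid plexus markers (Ttr, Aqp1, Kl, Clic6, Folr1, Enpp2, Tmem72, Slc4a5, Kcne2, Mfrp) was between 236 and 2748 CPM in WT SH, 227 and 7931 CPM in WT EE, 220.3 and 4305 CPM in KD SH, and 456 and 8251 CPM in KD EE. The sum of 7 thalamus markers (Tcf7l2, Lef1, Prkcd, Tnnt1, Slc17a6, Rora, Ntng1) was 462 CPM in WT SH library 12 and between 133 and 206 CPM in the other 21 libraries. The sum of 6 striatum markers (Drd1, Drd2, Adora2a, Ppp1r1b, Rgs9, Penk) was 182 CPM in WT SH library 14 and between 70.4 and 119 CPM in the other 21. In whole tissue, fewer cells of a type and less RNA per cell cannot be told apart.

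MSK1 phosphorylates CREB, which binds cAMP response elements, and EGR1 is a transcription factor that neuronal activity induces. The stretches upstream of the members were therefore read for their motifs. RefSeq (GRCm38.p6) gave windows for 7 of the 8 genes, all but Hapln4. The 250 bases before the start site are shown for Tnc, whose level varied most between libraries, and for Tnr and Ncan, whose levels varied together, 5′ to 3′ on the gene's own strand, with the match to the EGR motif GCGNGGGCG in capitals.
Tnc, chr4:64047016-64047265, minus strand: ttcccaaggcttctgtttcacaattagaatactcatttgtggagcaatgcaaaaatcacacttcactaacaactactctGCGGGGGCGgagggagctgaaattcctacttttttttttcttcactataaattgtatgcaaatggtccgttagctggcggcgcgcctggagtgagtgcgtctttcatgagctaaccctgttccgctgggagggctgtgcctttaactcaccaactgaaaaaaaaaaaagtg
Tnr, chr1:159523519-159523768, plus strand: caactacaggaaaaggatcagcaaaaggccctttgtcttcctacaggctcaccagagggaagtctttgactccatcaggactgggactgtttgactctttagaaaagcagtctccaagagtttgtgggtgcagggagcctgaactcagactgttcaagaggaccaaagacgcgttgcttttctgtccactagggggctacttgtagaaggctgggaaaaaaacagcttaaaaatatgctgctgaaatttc
Ncan, chr8:70120845-70121094, minus strand: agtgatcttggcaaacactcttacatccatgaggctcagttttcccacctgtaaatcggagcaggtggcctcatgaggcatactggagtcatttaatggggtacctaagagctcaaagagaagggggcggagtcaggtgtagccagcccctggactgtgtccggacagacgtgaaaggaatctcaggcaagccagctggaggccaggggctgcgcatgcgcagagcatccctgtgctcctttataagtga
The match in Tnc lies 171 bases before the start site of the window shown, on the coding strand. Tnc had 2 windows with different start sites, and the same match lies 250 bases before the other. No window of the other genes held the EGR motif. Of 32851 such windows over all genes, 4.7% hold that motif on either strand. The full cAMP response element TGACGTCA, to which CREB binds, was in none of the 7 genes' windows and is in 1.55% of all windows; its core TGACG, which the full element contains, was in none either and is in 17.8% of all windows. The AP-1 motif TGANTCA was also in none, against 6.75% of all windows. A match or its lack describes these letters only, and no binding was measured.

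Per kilobase of exon, the only scale on which genes can be compared with each other, the proteoglycan Bcan (brevican, the most abundant lectican of the adult brain) had the highest level at 77.99 ± 7.23 CPM per kb (SD, n = 22). Ncan (neurocan) followed at 35.1 ± 4.19 CPM per kb, then Hapln4 (Bral2, a link protein) at 32.9 ± 2.12 and Tnr (tenascin-R) at 20.4 ± 2.86 CPM per kb. The level was lower for Hapln1 (cartilage link protein) at 4.68 ± 0.691 CPM per kb, Vcan (versican) at 1.75 ± 0.215, Tnc (tenascin-C) at 1.23 ± 0.323 and Acan (aggrecan) at 0.889 ± 0.158 CPM per kb. In this order Ncan and Hapln4 lay within 1 SD of each other, and the means of the other neighbors lay further apart than the larger of their SDs. Across the 22 libraries the spread, as the coefficient of variation of the CPM, was smallest for Hapln4 at 6.44% and largest for Tnc at 26.2%. In the plot of each gene by library, this shows as a tight band for Hapln4 and a wide one for Tnc.

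**Figure D1:**
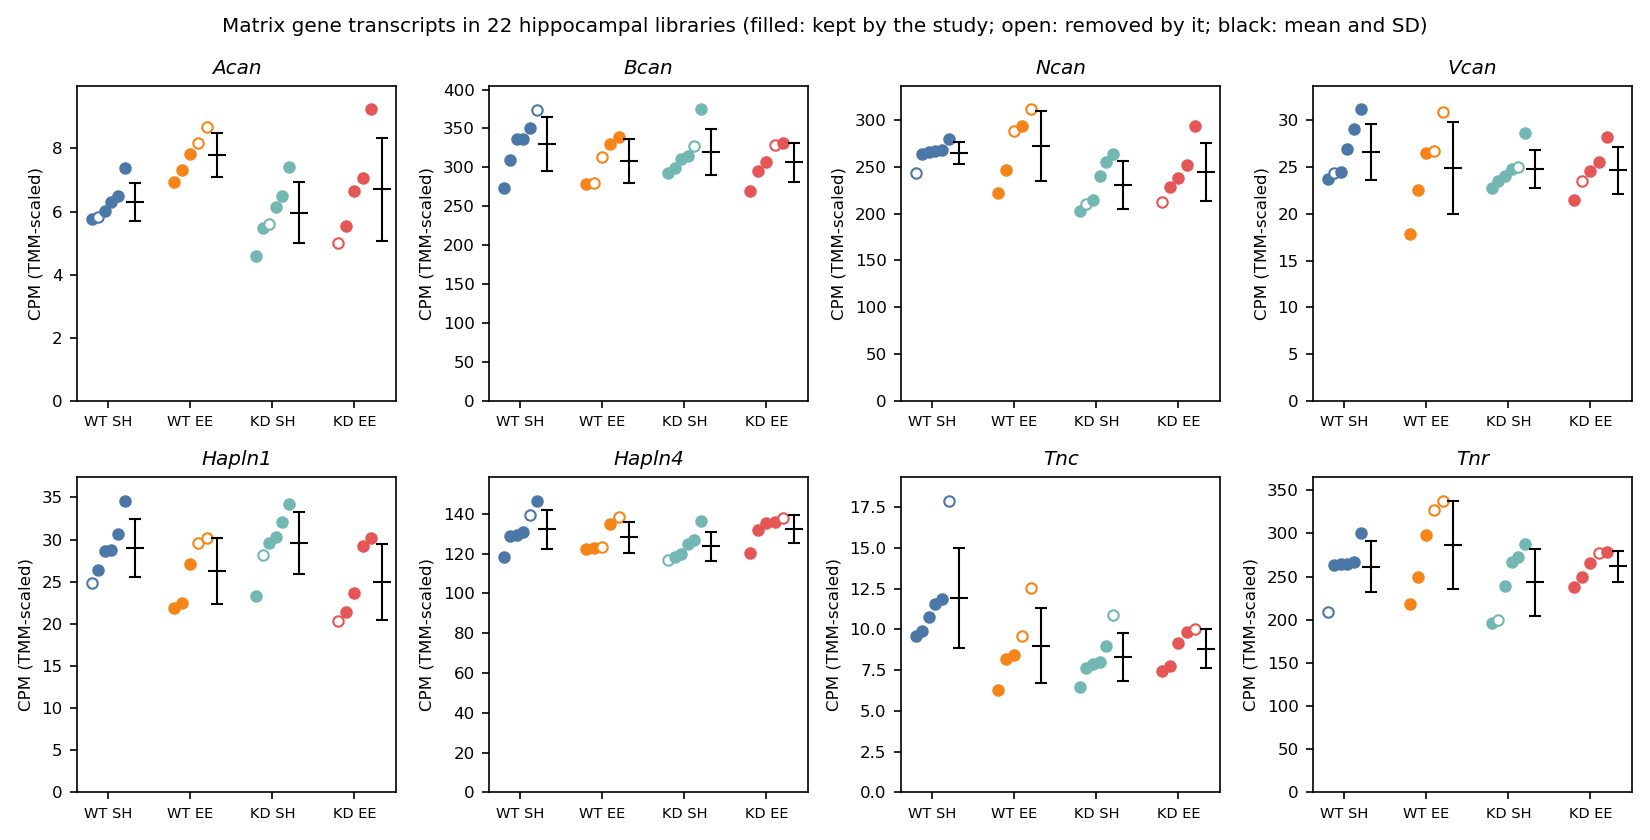
CPM (TMM-scaled, linear axis from 0) of the 8 genes in each of the 22 libraries, by group; filled points are libraries the study kept, open points the 5 it removed, and the black bar is the mean and SD over all libraries of the group. Every gene has overlapping groups, and Tnc has 1 library at 17.9 CPM, well above the others of WT SH.

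No member was called in any of the 7 comparisons over the 22 libraries. A gene counted as called when edgeR's quasi-likelihood test gave it a Benjamini–Hochberg adjusted p of at most 0.05 and its log2 fold change lay at least 0.38 from 0 (1.3-fold). The background was low as well. Of the 18482 genes tested, 0% were called for WT EE against WT SH, for KD EE against KD SH, for WT SH against KD SH, for WT EE against KD EE, for the interaction and for WT against KD over both housings, and 0.146% (27 genes) for EE against SH over both genotypes, a count that lay between 2 and 287 (without WT EE library 31B) when each library was left out in turn. DESeq2 called no member in the same 7 comparisons either. Nor did any member have groups without overlap, which 1.19% of all genes had in WT EE against WT SH, 0.546% in KD EE against KD SH, 0.276% in WT SH against KD SH, 0.325% in WT EE against KD EE, 0.0216% in EE against SH over both genotypes and 0% in WT against KD over both housings.

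At an unadjusted p under 0.05, 2 of the 8 members passed in WT EE against WT SH (Tnc and Acan), against 8.65% of all genes, and 1 in KD EE against KD SH (Hapln1), against 9.63%. In WT SH against KD SH, 2 passed (Tnc and Ncan), against 5.76%, and in WT EE against KD EE none did, against 2.61%. For EE against SH over both genotypes 2 passed (Acan and Hapln1), against 16.1%, for WT against KD over both housings 2 (Tnc and Ncan), against 6.06%, and for the interaction none, against 2.04%. With 8 genes, each of these counts stands for a few genes only, and none passed the adjustment over all genes. The members' median log2 fold change was −0.07 for WT EE against WT SH and 0.08 for KD EE against KD SH, and it was 0.10 for WT SH against KD SH and 0.06 for WT EE against KD EE, while the median over all genes was between −0.01 and 0.01.

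**Figure D2:**
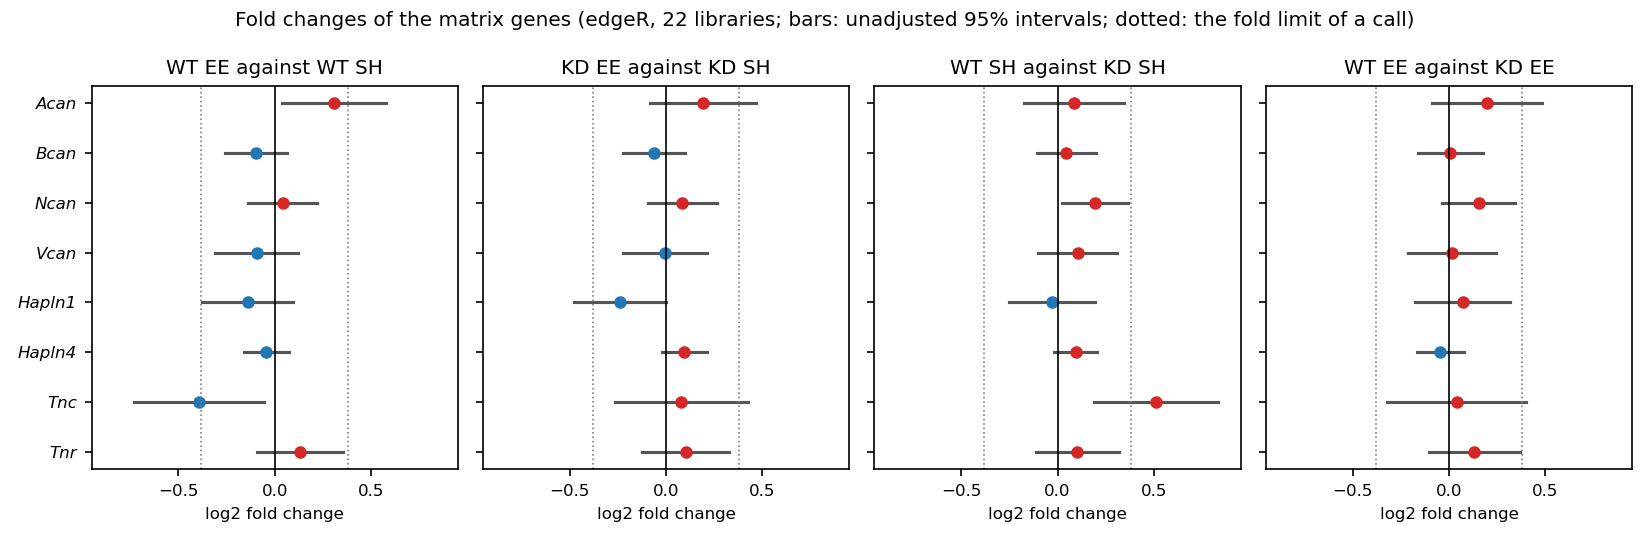
Log2 fold changes of the 8 genes in the 4 comparisons of 2 groups, with unadjusted 95% intervals from edgeR's fit of 22 libraries (red, above 0; blue, below 0); the dotted lines mark 0.38 either way. Tnc has the widest intervals and lies at −0.39 for WT EE against WT SH and at 0.51 for WT SH against KD SH, and the intervals of Tnr, Bcan, Ncan, Vcan and Hapln4 stay within the dotted lines in all 4 panels.

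Among the tenascins, Tnc encodes a hexameric matrix glycoprotein that is abundant during development and, in the adult brain, is made mainly by astrocytes and radial glia. In WT SH its level was between 9.62 and 17.9 CPM, with a median of 11.2. In WT EE it was 6.29 CPM in library 17, 8.18 in 33A, 8.42 in 16, 9.58 in 31B and 12.6 in 35A. All but the last of these lay below the lowest WT SH library. In KD SH it was between 6.45 and 10.9 CPM, with a median of 7.94, and in KD EE it was 7.42, 7.72, 9.14, 9.82 and 10.01 CPM. WT SH had the highest median, and WT EE, KD SH and KD EE each held at least 1 library at or above its lowest value. Enrichment in WT gave a log2 fold change of −0.39 ± 0.16 (SE; edgeR, adjusted p = 0.476), and in KD one of 0.08 ± 0.17 (adjusted p = 0.907). Under standard housing the log2 difference of WT from KD was 0.51 ± 0.16 (edgeR, adjusted p = 0.811), and under enrichment it was 0.04 ± 0.17. The effect of enrichment differed between the genotypes by −0.47 ± 0.23 on the log2 scale (edgeR interaction, adjusted p = 1; 95% interval −0.95 to 0.01).

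The values of Tnc turned on which libraries were used. In the 17 libraries of the study, WT SH lay between 9.62 and 11.8 CPM and the 3 WT EE libraries at 6.29, 8.18 and 8.42 CPM, without overlap, as did 12.4% of all genes tested in that set. There Tnc was called, and fell by 0.49 ± 0.13 on the log2 scale with enrichment in WT (edgeR, adjusted p = 0.0289). It was the only member called in that set, in which 3.55% of all 18701 genes tested were called and 13.7% had an unadjusted p under 0.05, against 3 members (Tnc, Vcan and Hapln1). In the same set the difference of WT SH from KD SH was 0.45 ± 0.11 (edgeR, adjusted p = 0.881), where Tnc and Ncan passed at an unadjusted p under 0.05 against 4.95% of all genes. The interaction was −0.62 ± 0.17 (edgeR, adjusted p = 0.872), where Tnc alone of the members passed against 5.51%. The study had chosen those 17 libraries for their agreement within groups, and they are among the 22 used above, so the call is not independent evidence. Of all single libraries left out of the 22, 12 moved the fold change in WT the most toward 0, to −0.25, and 35A the most away from it, to −0.55, and neither gave a call. Without library 12 the difference of WT SH from KD SH was 0.36, also not called.

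Library 12, with the highest Tnc level, was also the library with the thalamus marker sum of 462 CPM. All 7 thalamus markers had higher fitted means in WT SH than in KD SH, 4 of them at an unadjusted p under 0.05, with a median log2 difference of 0.31, and so had all 6 striatum markers, 3 of them at that p, with a median of 0.41. Of all genes, 47.8% were higher in WT SH and 5.76% had such a p. The highest striatum sum of WT SH was 182 CPM in library 14, and the next in the group was 94.1 CPM. Library 35A, with the highest Tnc level of WT EE, had a thalamus sum within the range of the others and one of the lowest choroid plexus sums, 227 CPM. Of the 22 libraries it also held the most counts on genes, 56752074, and the largest share of fragments not assigned to single genes, 18.6%. The next largest share was 16.1%, in KD SH library 5. The part of neighboring tissue in the Tnc values was not tested. Astrocyte markers (Gfap, Aqp4, Aldh1l1, Slc1a3, Slc1a2, Gja1, Gjb6, Fgfr3) summed to 4570 ± 384 CPM (SD, n = 6) in WT SH, 4392 ± 605 (n = 5) in WT EE, 4659 ± 267 (n = 6) in KD SH and 4416 ± 428 (n = 5) in KD EE, which overlap.

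**Figure D3:**
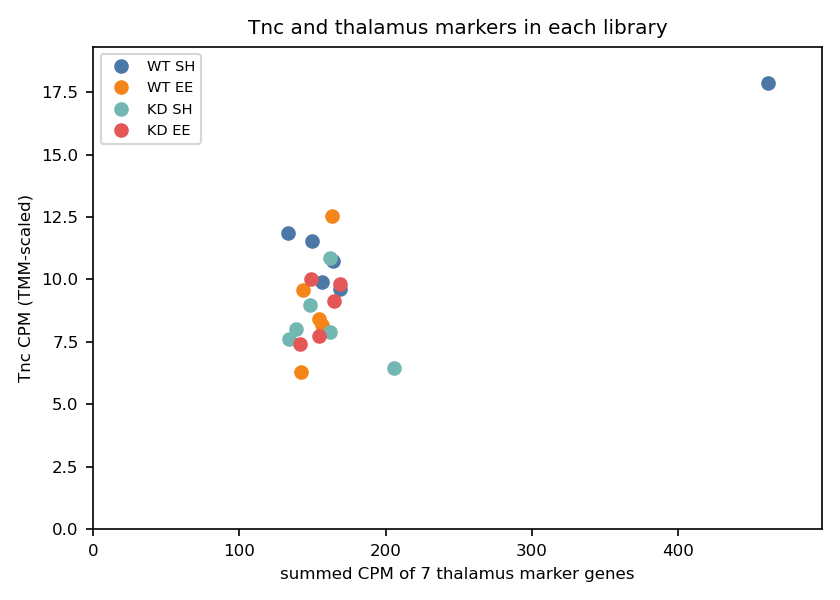
Tnc CPM (vertical) against the summed CPM of 7 thalamus markers (horizontal) in the 22 libraries, colored by group, both linear axes from 0. WT SH library 12 stands alone at 462 and 17.9 CPM, and the other 21 libraries lie between 133 and 206 CPM of the marker sum with Tnc between 6.29 and 12.6 CPM.

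Tnr encodes tenascin-R, made by oligodendrocytes and some interneurons, which binds the lecticans and holds the net together. It was between 209 and 299.9 CPM in WT SH (median 265) and between 196 and 288 CPM in KD SH (median 253). In WT EE it was 219, 249.8, 298, 327 and 338 CPM, and in KD EE 238, 249, 266, 277 and 278 CPM. The highest values were those of WT EE libraries 35A and 31B. The log2 fold change with enrichment over both genotypes was 0.12 ± 0.08 (edgeR, adjusted p = 0.477), with a 95% interval from −0.04 to 0.28. In the study's 17 libraries, from which 31B and 35A were left out, the same value was −0.03, and in WT alone it was 0.13 over the 22 libraries and −0.09 over the 17, so that no direction can be given.

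Of the lecticans, Acan encodes aggrecan, the proteoglycan on which net formation depends and the one most confined to nets. In WT SH it lay between 5.77 and 7.39 CPM, with a median of 6.16. In WT EE it was 6.94 CPM in library 33A, 7.33 in 17, 7.82 in 16, 8.17 in 35A and 8.69 in 31B. Only library 33A and library 17 of WT EE fell within the range of WT SH, whose highest library was 11. In KD SH it lay between 4.6 and 7.42 CPM, with a median of 5.88, and in KD EE it was 5.01, 5.55, 6.65, 7.08 and 9.24 CPM, so that those groups overlapped widely. The log2 fold change with enrichment was 0.31 ± 0.13 in WT (edgeR, adjusted p = 0.492), 0.19 ± 0.13 in KD (adjusted p = 0.65) and 0.25 ± 0.09 over both genotypes (adjusted p = 0.178). The interaction was 0.11 ± 0.19, with a 95% interval from −0.27 to 0.50. Without KD EE library 36A, the highest of its group, the value in KD was 0.05 and the interaction 0.26, neither called. In the study's 17 libraries the value over both genotypes was 0.23 (adjusted p = 0.265), and the 2 members with an unadjusted p under 0.05 there, Acan and Hapln1, stand against 17.2% of all genes. Acan had the fewest reads of the 8 genes, down to 45 counts in a library.

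Bcan encodes brevican, which in nets and around synapses is made by astrocytes, oligodendrocyte precursors and neurons. It was between 273 and 373 CPM in WT SH (median 336), between 279 and 340 in WT EE (median 314), between 292 and 375 in KD SH (median 313) and between 269.9 and 332 in KD EE (median 307). The log2 fold change with enrichment was −0.10 ± 0.08 in WT and −0.06 ± 0.08 in KD (edgeR, adjusted p = 0.793 and 0.819). Over both genotypes its 95% interval was −0.19 to 0.03, so that a change of 0.38 lay outside it in both directions.

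Ncan encodes neurocan, a lectican abundant in the young brain. It was between 243 and 279 CPM in WT SH (median 266), and in WT EE it was 222, 246, 288, 293 and 311 CPM. In KD SH it was between 202 and 263 CPM (median 227), and in KD EE 212, 228, 238, 252 and 293 CPM. The KD groups had the lower medians, with overlap under either housing. The log2 difference of WT from KD was 0.20 ± 0.08 under SH (edgeR, adjusted p = 0.811), 0.15 ± 0.09 under EE (adjusted p = 1) and 0.17 ± 0.06 over both (adjusted p = 0.803). With enrichment it changed by 0.04 ± 0.09 in WT and 0.08 ± 0.09 in KD on the log2 scale, neither of which passed. All 8 members had a higher fitted mean in WT than in KD over both housings, between 0.02 for Hapln1 and 0.28 for Tnc, where 50.2% of all genes did; in the study's 17 libraries Hapln1 and Vcan were lower in WT, at −0.06 and −0.01, without lettered libraries these and Tnr were, and with the GC score described below as a covariate Bcan was.

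Vcan encodes versican, a large lectican of white matter and oligodendrocyte precursors whose V2 form is found at nodes of Ranvier. It was between 23.7 and 31.2 CPM in WT SH (median 25.7) and between 22.8 and 28.6 CPM in KD SH (median 24.4). In WT EE it was 17.9, 22.5, 26.5, 26.7 and 30.9 CPM, and in KD EE 21.5, 23.5, 24.5, 25.6 and 28.3 CPM. WT EE held both extremes of the enriched libraries, with library 17 the lowest and 35A the highest. The log2 fold change with enrichment was −0.09 ± 0.10 in WT (edgeR, adjusted p = 0.869), and −0.28 ± 0.12 in the study's 17 libraries (adjusted p = 0.284). In KD it was −0.01 ± 0.11.

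The link proteins differed from each other. Hapln1, which ties lecticans to hyaluronan and whose loss leaves nets attenuated, was between 24.9 and 34.6 CPM in WT SH (median 28.7) and between 23.3 and 34.2 CPM in KD SH (median 29.9). In WT EE it was 21.9, 22.5, 27.1, 29.6 and 30.2 CPM, and in KD EE 20.4, 21.4, 23.6, 29.3 and 30.2 CPM. In each genotype 2 of the 5 enriched libraries (16 and 17 in WT, 8 and 9 in KD) lay below all standard-housed ones and the other 3 within their range. The log2 fold change with enrichment was −0.14 ± 0.11 in WT (edgeR, adjusted p = 0.799), −0.24 ± 0.12 in KD (adjusted p = 0.516) and −0.19 ± 0.08 over both genotypes (adjusted p = 0.237). In the study's 17 libraries the last was −0.26 ± 0.09 (adjusted p = 0.0839). That set called 3.85% of all genes for EE against SH over both genotypes and 1.74% for KD EE against KD SH, and no member in either.

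Hapln4, also called Bral2, is a brain link protein that pairs with brevican. It was between 119 and 147 CPM in WT SH (median 130.0) and between 117 and 136 CPM in KD SH (median 122). In WT EE it was 122, 123, 123, 135 and 138 CPM, and in KD EE 120.3, 132, 135, 136 and 138 CPM. The log2 fold change with enrichment was −0.04 ± 0.06 in WT and 0.09 ± 0.06 in KD (edgeR, adjusted p = 0.89 and 0.59). Its interval over both genotypes, −0.06 to 0.11, was the narrowest of the 8 genes.

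The levels of 3 of the 28 pairs of members varied together or against each other over the 22 libraries, by Pearson's r of log2 CPM with a permutation test adjusted over the pairs. The share of all gene pairs that would pass was not computed. Genes outside the members reached higher r with some of them, such as 0.95 for Tnr with Sipa1l1. The pairs are thus not shown to be particular to net genes. Tnr and Ncan varied together, with r = 0.74 (adjusted p = 0.00252) and Spearman's rho = 0.69 (adjusted p = 0.0126), and r = 0.63 without the 2 libraries farthest from the median of Tnr. Vcan and Hapln1 did so with r = 0.65 (adjusted p = 0.0105) and rho = 0.66 (adjusted p = 0.0139), and r = 0.54 without the 2 farthest. Bcan and Vcan went against each other, with r = −0.58 (adjusted p = 0.0388) and rho = −0.61 (adjusted p = 0.0281), and r = −0.66 without the 2 farthest. After the mean of each group was subtracted the same 3 pairs passed, at 0.72, 0.69 and −0.73, as did Bcan with Hapln1 at −0.80. In the 17 libraries whose code carries no letter none of the 28 passed, with r = 0.63 (adjusted p = 0.0677), 0.64 (adjusted p = 0.0677) and −0.49 (adjusted p = 0.263) for the same pairs; the 5 lettered libraries, all of them enriched, were too few for a value of their own. In the study's 17 libraries 4 pairs passed: Tnr with Ncan (r = 0.77, adjusted permutation p = 0.00644) and Vcan with Hapln1 (0.67, 0.0315) again, and Tnc with Ncan (0.65, 0.0394) and Acan with Hapln4 (0.64, 0.0394), which were at 0.35 and 0.41 over the 22 without passing, while Bcan with Vcan did not pass (−0.57, 0.0867).

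**Figure D4:**
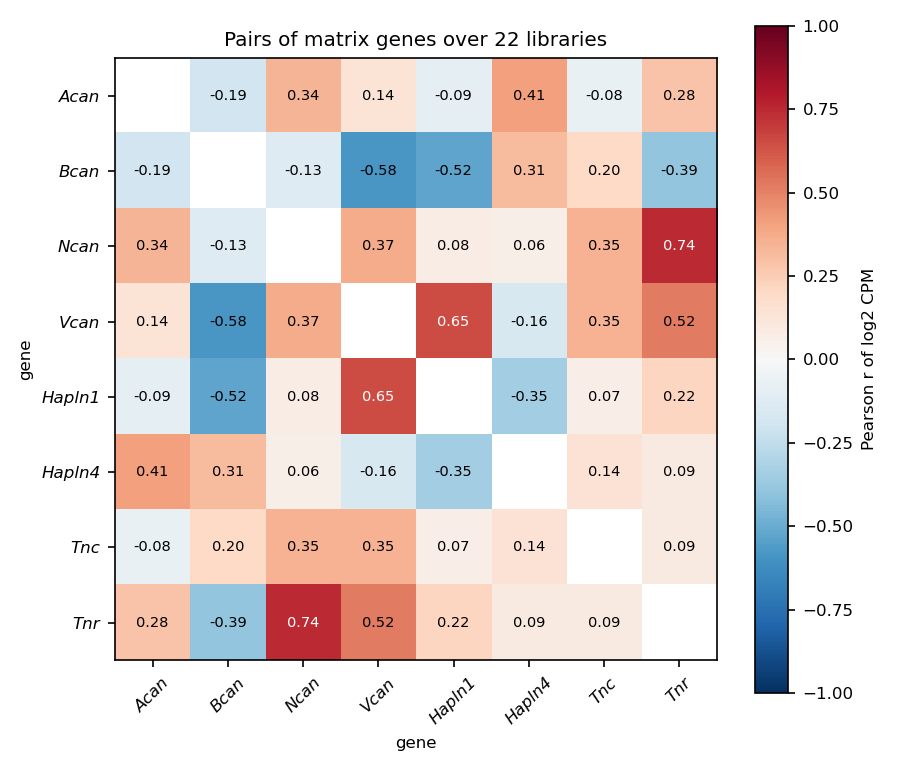
Pearson r of log2 CPM for each pair of the 8 genes over the 22 libraries, printed in each cell and colored from blue at −1 to red at 1. The strongest positive pairs are Tnr with Ncan (0.74) and Vcan with Hapln1 (0.65), and Bcan is negative with Vcan (−0.58) and Hapln1 (−0.52).

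In the genome (GRCm38) Vcan (chr13:89655312-89742509, minus strand) and Hapln1 (chr13:89539796-89611652, plus strand) are convergent neighbors 43659 bp apart, and Ncan (chr8:70093085-70120873, minus strand) and Hapln4 (chr8:70083457-70090862, plus strand) lie 2222 bp apart in the same arrangement. The first pair varied together and the second did not, at r = 0.06. The other members share no chromosome with another member: Bcan at chr3:87987531-88000230 (minus strand), Acan at chr7:79053483-79115099 (plus), Tnc at chr4:63959785-64047015 (minus) and Tnr at chr1:159523769-159931729 (plus). Genes outside the members that lie beside them without overlap were not looked for, so they may have other matrix genes as neighbors. The counting did not use strand. The exons of Tnc share 176 bp with those of 8030451A03Rik on the other strand, which was at 0 to 0.297 CPM, and those of Tnr share 443 bp with Gm38039, which was at 0 in all 22 libraries.

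Several members moved with measures of the library itself. A GC score was taken for each library as the mean log2 deviation of the genes in the upper quartile of transcript GC content minus that of the genes in the lower quartile. Bcan, with 60.7% GC in its longest transcript, went with it at r = 0.59 (rho = 0.66), while Vcan (43.7% GC) and Hapln1 (39.8% GC) went against it at r = −0.62 (rho = −0.59) and r = −0.63 (rho = −0.74), each r with an adjusted permutation p of 0.027 over 32 relations. Without the 2 libraries farthest from the median score, r was 0.54, −0.53 and −0.64, and in the 17 unlettered libraries 0.83, −0.72 and −0.67. Hapln4, Ncan and Acan, at 57.0%, 55.1% and 54.8% GC, had r = 0.38, 0.19 and 0.27. Tnc and Tnr, at 52.5% and 47.7% GC, had r = 0.16 and −0.10, and none of these passed. Bcan, Vcan and Hapln1 are themselves among the genes that make up the score. The share of all genes with such an r was not computed. Hapln1 also went with the mitochondrial share of the counts, at r = 0.59 (adjusted permutation p = 0.027; rho = 0.58, adjusted p = 0.0423; 0.46 without the 2 farthest and 0.68 without lettered libraries), and Hapln4 against the depth, at r = −0.57 (adjusted permutation p = 0.0321; −0.54 without the 2 farthest and −0.57 without lettered libraries), where rho = −0.55 did not pass (adjusted p = 0.0561). With the GC score as a covariate no member was called, and the fold change of Vcan with enrichment in KD was 0.09 in place of −0.01. The part of GC content in the pairs above was not tested.

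**Figure D5:**
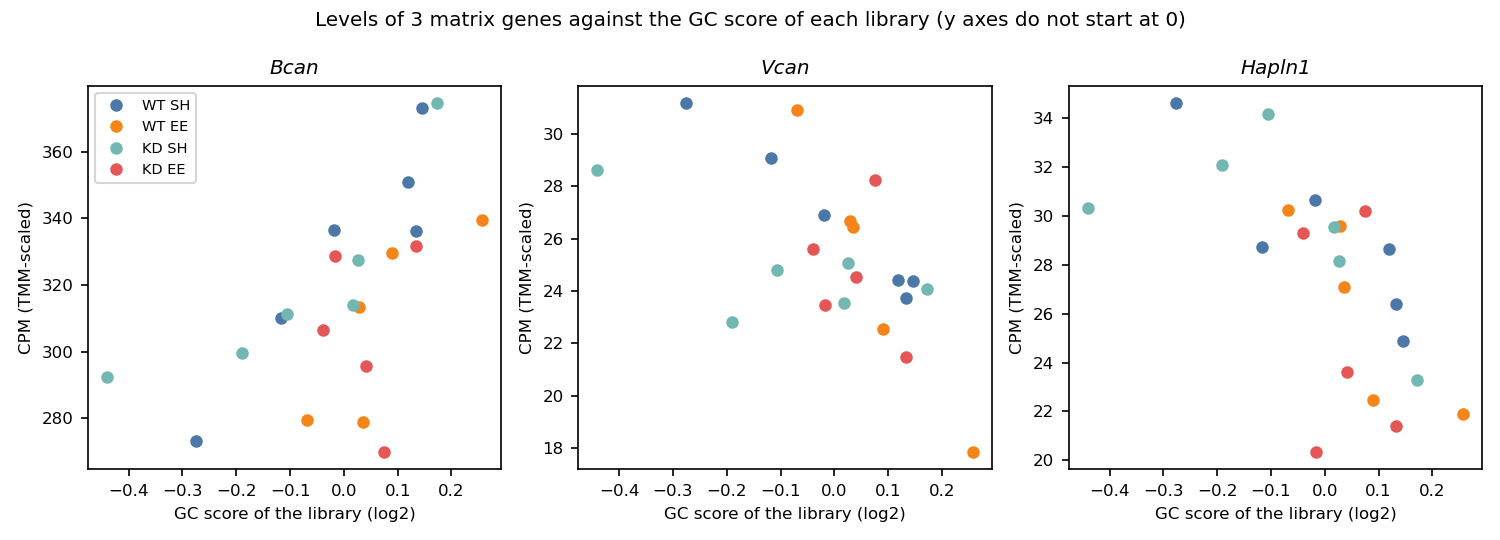
CPM of Bcan, Vcan and Hapln1 (vertical, linear, not from 0) against the GC score of the library (horizontal, log2 units), 1 point for each of the 22 libraries, colored by group. Bcan is higher in libraries with a higher score, r = 0.59, and Vcan and Hapln1 are lower in them, r = −0.62 and −0.63.

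Genes whose levels were among the 2 most like those of each member, out of all genes tested other than the members, were found by Pearson's r over the 22 libraries, as a description. Tnr was most like Sipa1l1 (r = 0.95) and Ryr2 (0.94), Ncan like Nova2 (0.93), Vcan like Map2 and Wnk1 (both 0.92), and Hapln1 like Pter (0.87). For Bcan the closest were Dcaf15 and Prpf40b (both 0.86), for Acan Txlna (0.75) and Pacsin2 (0.73), for Tnc Nell1 (0.73) and Sh3bp4 (0.71), and for Hapln4 Klc2 and Scrt1 (both 0.72). The members were not candidates, and none of those named was a gene of the further matrix lists used here.

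Markers of the cells that carry or make nets gave the following sums. For parvalbumin interneurons (Pvalb, Kcnc1, Kcnc2, Syt2, Tac1, Gad1, Lhx6, Erbb4) the sum was 880.2 ± 25.7 CPM (SD, n = 6) in WT SH, 848 ± 44.3 (n = 5) in WT EE, 884 ± 56.6 (n = 6) in KD SH and 877 ± 18.8 (n = 5) in KD EE. Pvalb itself was between 21.5 and 32.2 CPM in WT SH and between 25.4 and 45.2 CPM in KD SH, a log2 difference of −0.40 ± 0.11 (edgeR, adjusted p = 0.811). It was the lowest value of its list and was picked out after its values were seen: 4 of the 8 markers were higher and 4 lower in WT SH, with a median of −0.01. CA2 markers (Rgs14, Amigo2, Map3k15, Cacng5) summed to 139 ± 7.43, 129 ± 8.40, 139 ± 17.4 and 126 ± 4.82 CPM in WT SH, WT EE, KD SH and KD EE. The 4 did not move as a set. For EE against SH over both genotypes, 2 were higher and 2 lower, each at an unadjusted p under 0.05 and none called. Their log2 fold changes ran from −0.40 to 0.43, with a median of 0.008, where 16.1% of all genes had such a p. Oligodendrocyte precursor markers (Pdgfra, Gpr17, C1ql1, Neu4, Matn4, Lhfpl3, Cacng4) summed to 197 ± 8.15, 185 ± 12.0, 186 ± 7.85 and 178 ± 10.9 CPM in WT SH, WT EE, KD SH and KD EE. One of them, Lhfpl3, was the only marker called and is named for that. It fell by 0.47 ± 0.09 on the log2 scale with enrichment over both genotypes (edgeR, adjusted p = 0.0406). In this comparison 0.146% of all genes were called. Of the 7 precursor markers 5 were lower and 2 higher, with a median log2 fold change of −0.06. Of 7 oligodendrocyte markers (Mbp, Mog, Mag, Mobp, Cnp, Opalin, Ermn) all had lower fitted means under EE over both genotypes, 5 at an unadjusted p under 0.05 and none called, with a median log2 fold change of −0.16. Of all genes, 51.7% were higher in this comparison and 16.1% had such a p.

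None of the 61 tested genes of 4 further matrix lists, of 63 listed, was called in any comparison. For EE against SH over both genotypes, 3 of 10 other scaffold and tenascin genes had an unadjusted p under 0.05, all lower under EE, with a list median of −0.01, where 16.1% of all genes had such a p. The most abundant of them, the receptor phosphatase Ptprz1, whose secreted form is the proteoglycan phosphacan, was between 312 and 420.3 CPM in WT SH and between 240.1 and 347 CPM in WT EE, and its log2 fold change over both genotypes was −0.15 ± 0.06 (edgeR, adjusted p = 0.181). Cspg5 (neuroglycan C) had one of −0.09 ± 0.04 (adjusted p = 0.203).

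Of 11 net-bound factors and matrix receptors, 3 passed at an unadjusted p under 0.05, all higher under EE, with a median of 0.06, against the same 16.1% of all genes. Nptx2, a secreted pentraxin that binds AMPA receptors on parvalbumin interneurons, was between 18.3 and 28.6 CPM in WT SH and 21.7 and 41.6 CPM in WT EE, and between 16.4 and 23.1 CPM in KD SH and 19.1 and 41.9 CPM in KD EE. Its log2 fold change over both genotypes was 0.48 ± 0.12 (edgeR, adjusted p = 0.0598). Otx2, a homeoprotein that nets take up and that the choroid plexus makes, had a log2 fold change of 2.04 ± 0.61 (adjusted p = 0.0959) and ranged from 0.309 to 23.9 CPM, in libraries whose choroid plexus sums ranged from 220.3 to 8251 CPM; the part of choroid plexus tissue was not tested. The chondroitin sulfate receptor Ptprs and the tenascin-R ligand Cntn1, the most abundant of the list, were at 556 ± 54.5 and 436 ± 26.6 CPM (SD, n = 22).

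Of 19 tested genes of chondroitin sulfate synthesis, none had an unadjusted p under 0.05 for housing, and their median was −0.02. Chpf and B3gat3, a polymerizing factor and a linker glucuronyltransferase, were at 117 ± 11.5 and 110.1 ± 9.18 CPM. The lowest p were those of the synthase Chsy3, at 0.17 ± 0.09, and of the 4-O-sulfotransferase Chst11, at 0.07 ± 0.04 on the log2 scale (adjusted p = 0.344 and 0.387).

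Of 21 tested proteases, hyaluronidases and inhibitors, 16 had higher fitted means under EE, with a median of 0.13, and 6 of them and 1 lower had an unadjusted p under 0.05, where 51.7% of all genes were higher and 16.1% had such a p. Beside them, all 10 choroid plexus markers were higher under EE, each at an unadjusted p under 0.05 and none called, with a median of 2.36, and so were all 6 meninges markers (Dcn, Lum, Col1a1, Col1a2, Col3a1, Ogn), 4 at that p and none called, with a median of 0.45. Their part in the list's values was not tested. Hyal1, a lysosomal hyaluronidase, is named for the lowest p of the list. It was between 1.96 and 3.13 CPM in WT SH and between 3.40 and 4.09 CPM in WT EE. These 2 groups did not overlap, as was so for 1.19% of all genes. In KD SH it was between 1.72 and 2.97 CPM and in KD EE between 2.24 and 3.92 CPM, with overlap. Its log2 fold change over both genotypes was 0.50 ± 0.11 (edgeR, adjusted p = 0.0501), just short of a call. Plat, the tissue plasminogen activator, had one of 0.20 ± 0.06 (adjusted p = 0.0778), and its inhibitor Serpine2 one of −0.15 ± 0.05 (adjusted p = 0.106). Timp2, the most abundant of the list, was at 349 ± 30.2 CPM (SD, n = 22).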

How the data were processed

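The authors prepared poly-A libraries from whole hippocampus, sequenced them as read pairs, used Skewer for trimming and STAR v2.5 for alignment (GRCm38), and let HTSeq count unique alignments per gene symbol, ignoring strand. The deposited files hold these raw counts, without normalization, 1 file per library. A deposited table of normalized values for 17 libraries was not used. Groups were taken from the labels. No 2 libraries of a group held identical counts (50 pairs), and as nothing in the labels names the animals, p-values measure the spread between libraries. The labels name no cage or litter either. By the paper, enriched males from several dams shared a cage, so cage and litter cannot be told apart from housing here. HTSeq's totals of unassigned reads, 14.0% to 18.6% of fragments in the 22 libraries, were left out.

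Counts were tested in R 4.3.3 with edgeR 4.0.16: filterByExpr by group, TMM scaling, 1 mean per group and quasi-likelihood tests, with Benjamini–Hochberg adjustment over 18482 genes. The SE of a fold change was derived as its absolute log2 value over the square root of the test's F. The 95% intervals were built from that SE and the test's degrees of freedom. Log2 CPM used a prior count of 2, and correlations permutation tests with 100000 resamples (Python 3.11.15, two-sided). The scripts were tested on simulated data. The members and gene lists were chosen with earlier results of these data known. Pathway genes named are, per list, the 2 with the highest mean CPM and the 2 with the lowest p for EE against SH, and any called; Pvalb was named after its values were seen. Alternatives were the study's 17 and all 24 libraries, no lettered libraries, DESeq2 1.42.0, its size factors, no filter, a minimum of 10 counts throughout, calls by adjusted p only, fits of the compared groups alone, a choroid plexus score as covariate and each library left out. A GC score as covariate was added after the data were seen. The 3-count floor covers counting error only. Positions are from GENCODE M21, promoters from RefSeq. Figures were drawn with matplotlib 3.10.9. Some genes are not reported here, and the oligodendrocyte and striatum lists were computed without them.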

Additional observations from a re-analysis of the deposited data

Results flagged for a closer look

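Of 32 sets of values (8 genes in 4 groups), each compared with Dixon's criterion for a single value far from the rest, 1 met it, and chance alone gives about 1 in 20. Tnc was at 17.9 CPM in WT SH library 12, and the gap to the next library of the group, at 11.8 CPM, was 0.73 of the group's range against a critical value of 0.625 for 6 libraries. The same library held the highest sum of thalamus markers, 462 CPM, and the study had removed it for poor agreement within its group.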

How the results depend on the processing

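No member was called in any comparison under any alternative except the study's 17 libraries, which called 1 (Tnc, WT EE against WT SH). Of 28 member pairs 3 passed, 0 without lettered libraries, 4 in the study's 17 (of which 2 were among the 3) and 2 to 4 with each library left out.

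Some log2 fold changes, none of them called, changed sign. With the study's 17 libraries, these were Tnr −0.089 and Ncan −0.082 in WT EE against WT SH, Vcan 0.012 in KD EE against KD SH, Tnc −0.17, Tnr −0.012, Vcan −0.16 and Hapln1 −0.12 in WT EE against KD EE, Tnr −0.12, Acan −0.048, Bcan 0.057 and Hapln1 −0.12 in the interaction, Tnr −0.029 in EE against SH, Vcan −0.011 and Hapln1 −0.063 in WT against KD. With all 24 libraries, these were Bcan −0.015 in WT EE against KD EE. Without lettered libraries, these were Tnr −0.15, Bcan 0.025 and Ncan −0.17 in WT EE against WT SH, Tnc −0.0086 and Bcan 0.015 in KD EE against KD SH, Tnc −0.16, Tnr −0.12, Vcan −0.21 and Hapln1 −0.090 in WT EE against KD EE, Tnr −0.22, Bcan 0.011 and Hapln1 −0.064 in the interaction, Tnr −0.043, Bcan 0.020 and Ncan −0.073 in EE against SH, Tnr −0.0063, Vcan −0.050 and Hapln1 −0.058 in WT against KD. With the choroid plexus score, these were Vcan 0.10 in KD EE against KD SH, Vcan −0.022 in WT EE against KD EE, Tnr −0.027 in the interaction, Vcan 0.038 in EE against SH. With the GC score, an alternative chosen after seeing the data, these were Vcan 0.095 in KD EE against KD SH, Bcan −0.012 and Hapln1 0.033 in WT SH against KD SH, Bcan −0.015 in WT EE against KD EE, Vcan 0.027 in EE against SH, Bcan −0.013 in WT against KD. With each library left out, the ranges that crossed 0 were −0.016 to 0.10 for Ncan in WT EE against WT SH, −0.058 to 0.044 for Vcan in KD EE against KD SH, −0.089 to 0.018 for Hapln1 in WT SH against KD SH, −0.12 to 0.14 for Tnc in WT EE against KD EE, −0.036 to 0.045 for Bcan in WT EE against KD EE, −0.076 to 0.11 for Vcan in WT EE against KD EE, −0.038 to 0.11 for Tnr in the interaction, −0.087 to 0.0015 for Bcan in the interaction, −0.098 to 0.036 for Ncan in the interaction, −0.18 to 0.0081 for Vcan in the interaction and −0.0086 to 0.062 for Hapln1 in WT against KD. The cause was not tested.

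Over all genes, calls for WT EE against WT SH numbered 0, but 664 with the study's 17 libraries, 314 without lettered libraries, 20 with DESeq2, 7 with no filter and 1 with all 24 libraries. For KD EE against KD SH they numbered 0, but 325 with the 17 libraries and 3 with DESeq2. For WT SH against KD SH they numbered 0, but 2 with DESeq2, and for WT EE against KD EE 0, but 1 with the 17 libraries. For EE against SH over both genotypes they numbered 27, but 720 with the 17 libraries, 113 with all 24, 80 without lettered libraries, 211 with DESeq2, 44 with its size factors, 209 with no filter, 45 with 10 counts in each library, 9 with the choroid plexus score and 2 with the GC score. With each library left out that count was 2 to 287, and it was 0 to 1 for KD EE against KD SH and for WT EE against KD EE (1 without KD EE library 9). The lettered libraries are all enriched, so what they share and housing are only partly separable. No paired analysis was possible because the libraries' codes differ between the groups.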
